A study of Mus musculus with 33 samples.

Results

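The comparison is between the frontal cortex of wild-type (WT) mice at the end of sleep deprivation (SD, n = 7) and that of WT mice allowed to sleep again after it (RS, n = 7), and it asks which genes and functions begin to return during recovery sleep. These were 14 of the 33 RNA-seq libraries of the series. Of 21565 genes in the table, the 12921 with a CPM (reads scaled to library size) of at least 1 in every SD library or in every RS library were tested. The mice were male adult C57BL/6J, 8 to 19 weeks old. SD mice were kept awake for 6 hr, RS mice for 4 hr followed by 2 hr of recovery sleep, and control sleep (CS, n = 6) WT mice slept ad libitum, with tissue collected at ZT 6 in every group; constant darkness had been kept from 36 hr before the experimental day. RS mice had therefore lost less sleep than SD mice, so that a shorter deprivation and the sleep after it cannot be told apart. For genes that respond to SD in separate animals, libraries of Mef2c f/f mice (4 CS, 3 SD) and of Mef2c-cKO mice, in which Camk2a-Cre deletes Mef2c in forebrain excitatory neurons (3 CS, 3 SD; some of these mice also carried a recombined allele in the tail, so that loss in all cells cannot be told apart from loss in these neurons), were used as well.

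As background, prolonged waking raises immediate early genes, transcription factors and effectors that neurons switch on within minutes of activity, together with phosphatases that shut off the MAP kinase signal that induced them. The Per genes of the circadian clock and targets of the glucocorticoid receptor also respond to time awake in cortex. Short-lived messages can fall quickly once activity drops, whereas stable messages lag behind their transcription.

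The libraries held 53595657 to 249046089 recovered reads each. Principal component 1 of the 14 libraries carried 47.2% of the variance, and SD and RS overlapped on it. The numbers below are rescaled CPM for levels and log2 fold changes (FC), RS minus SD, for differences. Across the 12452 genes with a GC value, the log2 FC and the GC content of the transcripts had a Spearman rho of -0.50, given as a description because genes are not independent replicates. In CS, replicate 2 stood apart for many genes, so medians are given for CS. Without that library, DEGs from CS to SD numbered 4506 instead of 5825, and those from CS to RS 98 instead of 2232. In bulk tissue, fewer cells of a type and less RNA per cell cannot be told apart.

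A total of 3 genes were differentially expressed (DEGs) between SD and RS in the limma fit, which was 0.0232% of the genes tested. A DEG had a p of 0.05 or less after Benjamini-Hochberg adjustment and a log2 FC of 0.3 or more in size. Alas2 fell, and Pth2r and Kcnj2 rose. edgeR on the recovered reads called the same 3 genes. By the same fit, CS to SD gave 5825 DEGs of 12913 genes (45.1%) and CS to RS 2232 of 12752 (17.5%, with 98 left without CS replicate 2). These comparisons share libraries and are only set beside each other. The calls depended on which libraries were kept: of 14 limma fits that left out 1 library, 10 gave 0 DEGs, and the others gave 9 (without RS replicate 5), 6 (without SD replicate 3), 3 (without RS replicate 4) and 1 (without SD replicate 4). After correction for GC content and transcript length, Alas2 and Pth2r remained DEGs and Kcnj2 did not. Without a filter on low values there were 0 DEGs, with CPM of at least 5 in every library 0 (Alas2 and Pth2r then lie under the filter), and with CPM as deposited only Pth2r.

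Alas2 encodes the erythroid enzyme that starts haem synthesis, and lies on chromosome X at 150547375 to 150570638 (mm10). Its level ran from 3.83 to 6.16 in SD (median 5.38) and from 2.2 to 3.31 in RS (median 2.64), with no overlap, and the CS median was 2.22. The log2 FC from SD to RS was -0.77 ± 0.12 (SE; limma adjusted p = 0.0393). From CS to SD Alas2 rose by 0.97 (limma adjusted p = 0.00039), and from CS to RS the difference was 0.20 (limma adjusted p = 0.128).

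Pth2r encodes the receptor for the neuropeptide TIP39, and lies on chromosome 1 at 65282056 to 65389244. SD libraries held 2.08 to 2.91 (median 2.32) and RS libraries 3.25 to 7.71 (median 4.65), close to the CS median of 4.60. The log2 FC was 0.89 ± 0.14 (limma adjusted p = 0.0393). Pth1r, the other receptor of the family, had a log2 FC of -0.19 (limma adjusted p = 0.986), and the ligand genes Pth and Pth2 were not tested because they were too low.

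Kcnj2 encodes an inward rectifier potassium channel that holds the resting membrane potential, and lies on chromosome 11 at 111066164 to 111076821. It ran from 27.3 to 37.4 in SD (median 28.8) and from 38.3 to 49.5 in RS (median 42.9). The log2 FC was 0.50 ± 0.08 (limma adjusted p = 0.0393). RS lay above the CS median of 36.3. From CS to RS the log2 FC was 0.25 (limma adjusted p = 0.044), which missed the fold threshold of 0.3, so Kcnj2 was not a DEG there. Without CS replicate 2 the limma adjusted p was 0.0569.

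DESeq2 on the recovered reads called 54 genes (0.418% of those tested), of which 31 fell (0.24%) and 23 rose (0.178%). All 3 limma DEGs were among them. Of the 54, 23 were called again in each of the 14 DESeq2 fits that left out 1 library, which gave 26 calls without SD replicate 8 to 121 without RS replicate 5. The count was 20 with all WT groups in 1 DESeq2 fit, where Dusp5, Bhlhe40, the globins, Col1a1 and Col1a2 lost the call, and 33 with CPM of at least 5 in every library. With array quality weights, limma called 100 genes (0.774%), 50 of the 54 among them. Genes named below with a DESeq2 adjusted p passed that test and not limma's, unless said otherwise. Where a limma adjusted p over 0.05 is given, the gene did not pass.

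**Figure D1:**
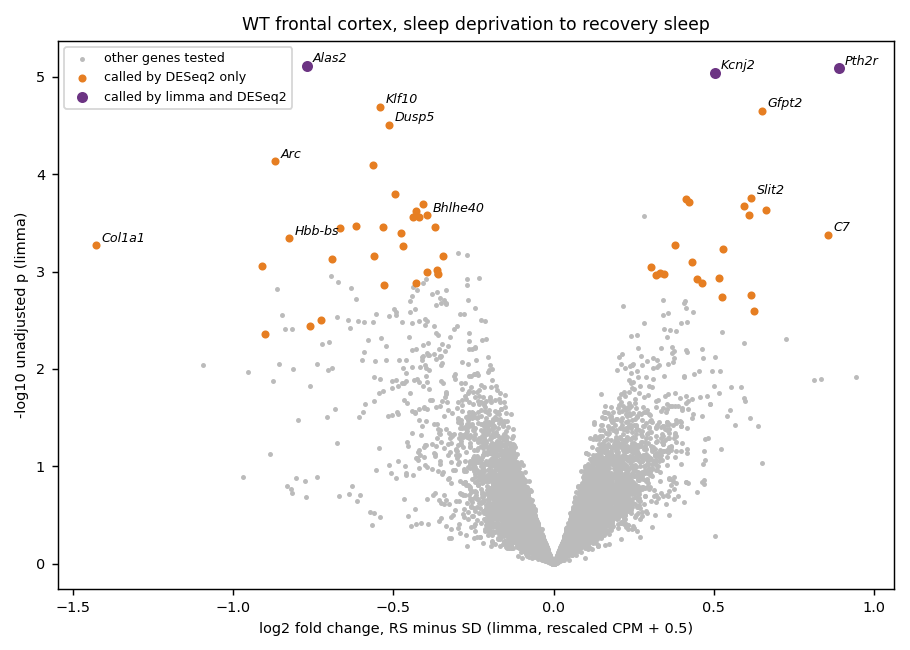
Each point is 1 of the 12921 genes tested, with the log2 fold change from SD to RS on the x axis and the -log10 of the unadjusted limma p on the y axis. Purple points are the 3 genes called by limma and DESeq2, and orange points the other genes among the 54 that DESeq2 called; Arc, Col1a1 and the globins lie to the left and Slit2, C7 and Gfpt2 to the right.

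Without any model, SD and RS values were fully separate in 21 genes (0.163% of those tested), 14 lower in RS (0.108%) and 7 higher (0.0542%). Of these 21, 15 were called by DESeq2. The lower ones, besides Alas2, were Klf10, Dusp5, Tm6sf2, Wnk4, Itga11, Gxylt2, Bhlhe40, Nid1, Map3k8, Akna, Myo1c, Itpkc and Plat. The higher ones, besides Pth2r and Kcnj2, were Gfpt2, Skap1, Adam23, Fem1c and Zfp867.

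Gfpt2, an amidotransferase that starts the hexosamine pathway of protein glycosylation, ran from 7.03 to 9.23 in SD (median 8.02) and from 10.5 to 18.5 in RS (median 12.7). The CS median was 13.3, and the difference from CS to RS was -0.07 (limma adjusted p = 0.685). It rose from SD to RS by DESeq2 (log2 FC 0.71, DESeq2 adjusted p = 2.05e-05; limma adjusted p = 0.0574).

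Tm6sf2, a membrane protein of lipid handling, was low in every library, from 1.02 to 1.66 in SD and 0.508 to 0.928 in RS (DESeq2 log2 FC -0.84, adjusted p = 0.00169). It passed the filter only through SD, the group where it was high, so its values are given as a description. Itga11, a collagen-binding integrin, ran from 3.11 to 5.32 in SD and 2.80 to 3.09 in RS, and fell (DESeq2 adjusted p = 0.00237). Skap1, a signalling adaptor known from T cells, ran from 1.96 to 2.83 in SD and 2.98 to 5.65 in RS, and rose (DESeq2 adjusted p = 0.00315). From CS to SD, which shares the SD libraries, Tm6sf2 and Itga11 rose and Skap1 fell, with limma adjusted p-values of 0.000528 for Tm6sf2, 0.000615 for Itga11 and 0.00268 for Skap1.

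**Figure D2:**
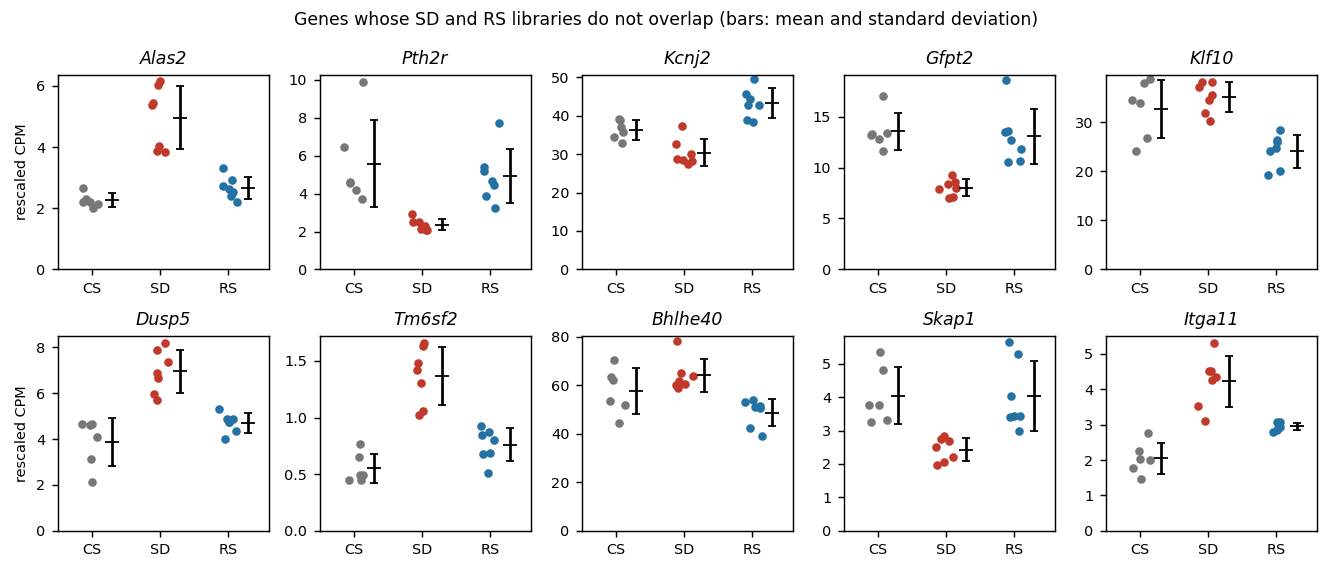
Rescaled CPM (y axis, from 0) of 10 genes in each CS (grey, n = 6), SD (red, n = 7) and RS (blue, n = 7) library, with the mean and standard deviation as a bar. In each panel the red and the blue points do not overlap; Alas2 runs from 3.83 to 6.16 in SD and from 2.2 to 3.31 in RS, while Kcnj2 and Klf10 in RS lie on the far side of most CS libraries.

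Among activity-regulated genes, Arc, Klf10 and Dusp5 were lower in RS than in SD by DESeq2. Lists were described by how many members had an unadjusted limma p of at most 0.05, which all genes reached in 5.29% of cases (3.1% lower and 2.19% higher in RS). In the lists that follow, lower and higher members are those that reached this unadjusted level, most of which did not pass after adjustment. Of 16 immediate early transcription factors tested, 6 were lower at that level and 0 higher, and of 22 activity effectors 4 were lower and 0 higher. Of 11 MAP kinase phosphatases and Sprouty inhibitors 5 were lower and 0 higher. The median log2 FC of these lists was -0.10, -0.02 and -0.15, against -0.0047 for all genes. Corrected for GC content and transcript length, the medians were -0.053, -0.004 and -0.144. A log2 FC below 0 was found in 11 of 16 early factors, 12 of 22 effectors (54.5%) and 10 of 11 phosphatases and Sprouty inhibitors. Of all genes, 51.7% were below 0. From CS to RS 15 of the 16 early factors were tested, so the other passed the filter only through SD.

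Arc, an effector that removes AMPA receptors from synapses, had the lowest log2 FC of the activity lists. It ran from 58.8 to 94.8 in SD (median 83.0) and from 29.4 to 64.7 in RS (median 39.4), so that the ranges overlapped, and the CS median was 32.4. Arc fell by DESeq2 (log2 FC -0.83, adjusted p = 0.00169) and had a limma log2 FC of -0.87 ± 0.16 (limma adjusted p = 0.129). From CS to RS the limma log2 FC was 0.31 (adjusted p = 0.315).

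Klf10, a zinc finger transcription factor of the early response, ran from 30.2 to 38.1 in SD (median 35.6) and from 19.2 to 28.4 in RS (median 24.8), and fell by DESeq2 (log2 FC -0.53, adjusted p = 0.000128). The CS median was 34.1, so RS lay under CS as well as under SD. From CS to RS the limma log2 FC was -0.42 (adjusted p = 0.0415), and it was -0.50 without CS replicate 2 (adjusted p = 0.0502). From CS to SD it was 0.12 (limma adjusted p = 0.385).

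Dusp5, a nuclear phosphatase that inactivates ERK, ran from 5.69 to 8.20 in SD and from 4.0 to 5.33 in RS, and fell by DESeq2 (log2 FC -0.55, adjusted p = 0.000128). The CS libraries held 2.13 to 4.66. Spry4, an inhibitor of growth factor signalling, had a log2 FC of -0.34 (limma adjusted p = 0.341), Dusp6 of -0.24 (limma adjusted p = 0.743) and Dusp1 of -0.36 (limma adjusted p = 0.922).

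Among the other early factors, the orphan receptor Nr4a1 ran from 32.1 to 46.8 in SD and 26.3 to 36.7 in RS (log2 FC -0.35, limma adjusted p = 0.345). Ier5 had a log2 FC of -0.49 (limma adjusted p = 0.372), and the AP-1 subunits Junb and Fos of -0.61 (limma adjusted p = 0.859) and -0.40 (limma adjusted p = 0.869). Their SD and RS ranges overlapped, with Junb at 14.7 to 37.8 in SD and 10.5 to 25.5 in RS. The small GTPase Arl4d (-0.56, limma adjusted p = 0.557) and the pseudokinase Trib1 (-0.35, limma adjusted p = 0.546) were lower in RS at the same unadjusted level.

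Other members of the same lists did not reach even the unadjusted level. Egr1 ran from 46.1 to 88.0 in SD and 53.6 to 87.9 in RS (log2 FC 0.11, limma adjusted p = 0.986). Npas4, a neuron-specific factor, had a log2 FC of 0.29 (limma adjusted p = 0.975), with a CS median of 5.13, an SD median of 9.31 and an RS median of 10.8. Homer1, counted over all isoforms, had a log2 FC of 0.06 (limma adjusted p = 0.986) and Bdnf of 0.11 (limma adjusted p = 0.986).

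**Figure D3:**
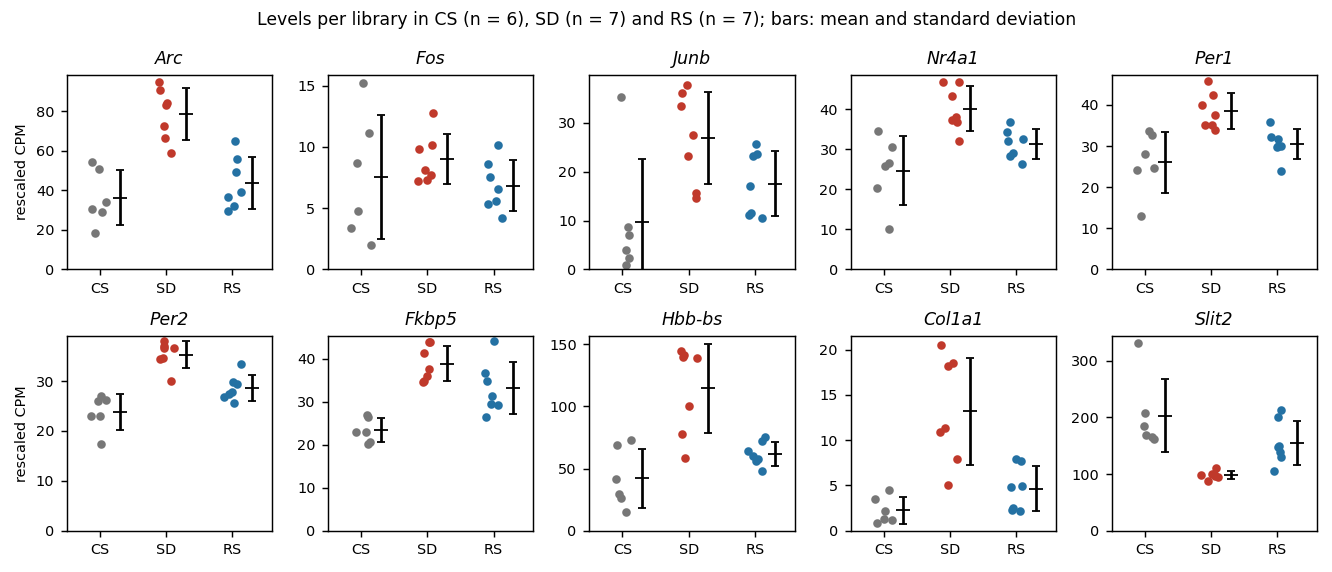
Rescaled CPM (y axis, from 0) of 10 genes in each CS (grey), SD (red) and RS (blue) library, with the mean and standard deviation as a bar. Arc, Per1 and Per2 lie lower in RS than in most SD libraries, Fos and Junb overlap widely between SD and RS, and Slit2 is higher in RS, between 105 and 213, than nearly every SD library.

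Promoters of activity genes often hold the cAMP response element (CRE), which the factor CREB binds, or the CArG box, which serum response factor binds. The 150 bases before the RefSeq start on the strand of the gene (GRCm38.p6) are printed for 5 genes lower in RS at the unadjusted level, chosen because they hold such an element, with the CRE core (TGACG or, on the other strand, CGTCA) and the CArG box in capitals.

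Fos, chr12:85473740-85473889, plus strand: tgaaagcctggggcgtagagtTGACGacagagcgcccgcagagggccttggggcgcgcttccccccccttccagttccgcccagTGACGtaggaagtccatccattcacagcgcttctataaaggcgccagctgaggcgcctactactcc

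Nr4a1, chr15:101266696-101266845, plus strand: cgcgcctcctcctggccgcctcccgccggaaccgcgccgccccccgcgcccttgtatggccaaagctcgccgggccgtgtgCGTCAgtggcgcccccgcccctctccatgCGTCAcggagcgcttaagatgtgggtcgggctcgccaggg

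Dusp1, chr17:26508473-26508622, minus strand: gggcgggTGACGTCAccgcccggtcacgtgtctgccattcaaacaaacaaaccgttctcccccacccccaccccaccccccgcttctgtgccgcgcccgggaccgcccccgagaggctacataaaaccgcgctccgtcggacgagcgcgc

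Dusp5, chr19:53528995-53529144, plus strand: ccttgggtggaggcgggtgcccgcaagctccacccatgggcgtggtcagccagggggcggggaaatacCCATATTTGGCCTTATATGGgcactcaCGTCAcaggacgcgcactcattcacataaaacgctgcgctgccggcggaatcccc

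Arl4d, chr11:101665391-101665540, plus strand: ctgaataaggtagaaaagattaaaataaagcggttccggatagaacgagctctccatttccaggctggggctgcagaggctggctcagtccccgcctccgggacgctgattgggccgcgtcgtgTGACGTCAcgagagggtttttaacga

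Dusp1 and Arl4d held the full palindrome, in which both cores overlap, and Dusp5 held a pair of adjoining CArG boxes upstream of 1 CRE core. Over the 250 bases before the start, 25 of 47 members of the early factor, effector, phosphatase and clock repressor lists with a promoter in the table held a core (53.2%), against 19.8% of all 27025 genes. The full CRE was in 5 members (10.6%) against 1.77% of genes, and the CArG box in 2 (4.26%) against 1.62%. Of the 5 genes printed, only Dusp5 was called by DESeq2. Npas4 and Bdnf, which did not reach the unadjusted level, also held the core, Ier5, Dusp6 and Tef, which were lower at that level, did not, and Arc, Klf10, Per2 and Bhlhe40 had no entry in the table. A match of letters is no evidence of a bound factor.

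Among clock genes, only Bhlhe40 was called by DESeq2, and Per1 and Per2 were lower in RS at the unadjusted level. Of 14 clock repressors and outputs tested, 4 were lower (Per1, Per2, Tef and Bhlhe40) and 1 higher (Usp2) at an unadjusted limma p of at most 0.05. Bhlhe40, an activity-induced repressor of the clock, ran from 58.9 to 78.5 in SD and from 39.1 to 53.8 in RS, and fell by DESeq2 (log2 FC -0.39, adjusted p = 0.0115). Its CS median of 58.0 was near the SD median of 61.8. Per2 ran from 30.1 to 38.0 in SD and from 25.6 to 33.5 in RS (limma log2 FC -0.30, limma adjusted p = 0.249), and Per1 from 33.9 to 45.8 and from 23.9 to 35.9 (-0.34, limma adjusted p = 0.312). The DESeq2 adjusted p of Per2 was 0.0157, but its DESeq2 log2 FC of -0.29 missed the fold threshold. Nr1d1, another repressor, had a log2 FC of -0.04 (limma adjusted p = 0.988).

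Of the 5 clock activators tested, 0 reached the unadjusted level in either direction, with log2 FC from 0.03 to 0.21. Clock had an SD median of 176 and an RS median of 185, against 247 in CS, and Arntl of 62.9, 63.4 and 71.9. All 5 were DEGs lower from CS to SD in the limma fit, with or without CS replicate 2, a comparison that shares the SD libraries. Of all genes, 20.5% were DEGs lower from CS to SD, and 16.1% without CS replicate 2.

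Of 19 glucocorticoid receptor targets, 5 were lower in RS at an unadjusted limma p of at most 0.05 and 0 higher, with a list median of -0.14. Angptl4, 1 of the 5, passed the filter only through SD, the group where it was high, so it is counted as a description. Txnip, which binds thioredoxin, ran from 14.3 to 16.6 in SD and 8.86 to 16.6 in RS (log2 FC -0.40, limma adjusted p = 0.385). Fkbp5, a cochaperone of the receptor, had an SD median of 37.6, an RS median of 31.4 and a CS median of 23.0 (log2 FC -0.24, limma adjusted p = 0.878). Sgk1 (-0.12, limma adjusted p = 0.986), Tsc22d3 (-0.14, limma adjusted p = 0.986) and Plin4 (-0.44, limma adjusted p = 0.986) did not reach the unadjusted level. From CS to RS, 9 of the 18 tested were DEGs higher in RS, against 9.28% of all genes, and without CS replicate 2 there was 1, against 0.361%. Fkbp5 was among the 9 (limma adjusted p = 0.0335, and 0.0502 without CS replicate 2).

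Blood genes were lower in RS. All 5 tested blood markers of 8 listed (the globins Hba-a1, Hba-a2, Hbb-bs and Hbb-bt, and Alas2) were lower in RS at an unadjusted limma p of at most 0.05, fell by DESeq2, and had a median log2 FC of -0.77 (-0.74 with GC content and transcript length corrected for). Their summed level ran from 98.3 to 287 in SD (median 236), from 85.6 to 140 in RS (median 111) and from 28.3 to 118 in CS (median 59.0). Hbb-bs, adult beta globin, ran from 58.2 to 145 in SD and from 48.3 to 75.3 in RS (DESeq2 log2 FC -0.88, adjusted p = 0.00219). The paired globin genes are near-identical copies, and how uniquely mapped reads divide between them is uncertain. Leaving out 1 library kept the DESeq2 call in 14 of 14 fits for Alas2 and Hbb-bs, 8 for Hba-a1, 5 for Hba-a2 and 4 for Hbb-bt. Slc4a1 and the granulocyte genes S100a8 and S100a9 were too low to be tested, and the part of blood left in the tissue in these differences was not tested. In Mef2c f/f mice the blood genes were lower in SD than in CS, with Hbb-bs at 58.8 to 95.3 in CS and 30.2 to 55.0 in SD (log2 FC -0.94, limma adjusted p = 0.115), and Alas2 at 4.09 to 5.23 and 2.37 to 3.20, neither of which passed. In Mef2c-cKO mice Hbb-bs ran from 5.68 to 59.4 in CS and from 44.2 to 80.1 in SD. The differences between genotypes were not tested.

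Meningeal fibroblast markers were also lower in RS. All 7 tested had a log2 FC below 0, 5 of them at an unadjusted limma p of at most 0.05, with a median of -0.76. Only 5 of the 7 passed the filter from CS to RS. The others were tested only through SD, the group where they were high, so this count and median are given as a description. Of all genes, 51.7% had a log2 FC below 0. Col1a1, the main fibrillar collagen chain, ran from 5.03 to 20.5 in SD (median 11.4) and from 2.23 to 7.95 in RS (median 4.82), against a CS median of 1.73. It fell by DESeq2 (log2 FC -1.5, adjusted p = 0.0354), as did Col1a2 (-0.87, adjusted p = 0.0342), but of the 14 DESeq2 fits without 1 library only 5 called Col1a1 and 7 Col1a2. The summed level of the list ran from 65.5 to 105 in SD, from 19.1 to 67.6 in RS and from 11.5 to 54.5 in CS, and the part of attached meninges in it was not tested. Of 34 collagen genes, a family chosen after the values were seen, 8 were lower and 1 higher at an unadjusted limma p of at most 0.05. From CS to RS 32 of the 34 were tested, so the others passed the filter only through SD.

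Fewer markers of the other cell types were at the unadjusted level. Excitatory neuron, inhibitory neuron, oligodendrocyte, oligodendrocyte precursor and endothelial lists had 0 members at the unadjusted level in either direction, with medians of -0.023, 0.036, -0.002, -0.013 and -0.063. Among astrocyte, microglia and pericyte markers 1 member each was lower in RS: Gfap (log2 FC -0.47, limma adjusted p = 0.583), the perivascular macrophage gene Mrc1 (-0.37, limma adjusted p = 0.878) and the smooth muscle actin gene Acta2 (-0.49, limma adjusted p = 0.848). All 7 pericyte and smooth muscle markers had a log2 FC below 0 (list median -0.18), as did 5 of 6 astrocyte markers (-0.08) and 4 of 6 microglia and macrophage markers (-0.04). Of the endothelial markers, 5 of 6 were below 0 as well, and of all genes 51.7% were. The counts were 3 of 6 excitatory, 2 of 6 inhibitory, 3 of 6 oligodendrocyte and 2 of 3 precursor markers. Of 2 choroid plexus markers tested, Kl was lower.

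Slit2, C7, Prr16 and Mctp2 were among the genes that rose most in RS by DESeq2. Slit2, a secreted guidance cue, ran from 87.1 to 111 in SD and from 105 to 213 in RS (median 147), with a CS median of 177, and rose by DESeq2 (log2 FC 0.67, adjusted p = 0.00169). C7, a complement component, ran from 0.760 to 1.34 in SD and from 1.25 to 4.94 in RS (DESeq2 log2 FC 1.24, adjusted p = 0.00226). C7 passed the filter only through RS, the group where it was high, so its values are given as a description. Prr16 had an SD median of 120 and an RS median of 188 (DESeq2 adjusted p = 0.00237). Mctp2, a calcium-binding membrane protein, had medians of 6.37 and 9.50, against 10.2 in CS (DESeq2 adjusted p = 0.00169).

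The channel and receptor lists gave few calls. Of 10 inward rectifier potassium channels, Kcnj2 rose, Kcnj3, a subunit of G protein-gated channels, had a log2 FC of 0.44 (limma adjusted p = 0.619), and the list median was 0.01. Of 46 other potassium channels, 5 were higher in RS (Kcna4, Kcnh7, Kcnq5, Kcnt2 and Kcnv1) and 0 lower at that level. Of 13 GABA receptor subunits, 2 were higher (Gabra2 and Gabrb2) and 0 lower, with a list median of 0.15. Corrected for GC content and transcript length, this list had a median of 0.11. Of the 13, 2 had a log2 FC below 0, against 51.7% of all genes. Gabrb2, a beta subunit, had medians of 387 in SD, 438 in RS and 612 in CS.

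Of 32 glutamate receptor genes, 3 were higher and 1 lower. Grm3, a presynaptic and glial metabotropic receptor, had a log2 FC of 0.47 (limma adjusted p = 0.549), the AMPA subunit Gria3 of 0.30 (limma adjusted p = 0.869) and Grin2c of -0.20 (limma adjusted p = 0.869). Gria2, the subunit that sets calcium permeability, had medians of 1074 in SD, 1148 in RS and 1517 in CS (log2 FC 0.21, limma adjusted p = 0.986). The list median was 0.06, and with GC content and transcript length corrected for it was 0.11. Mef2c itself had a log2 FC of 0.16 (limma adjusted p = 0.986), with medians of 816 in SD, 975 in RS and 1343 in CS.

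The respiratory chain, cytosolic ribosome and ER chaperone lists had 1, 0 and 0 members at the unadjusted level from SD to RS, where 5.29% of all genes stood at that level. From CS to SD, 24.6% of all genes were DEGs higher in SD, and 18.8% without CS replicate 2. Of 82 respiratory chain genes encoded in the nucleus, 51 were higher in SD than in CS as DEGs (32 without CS replicate 2), and from SD to RS 0 were lower and 1 higher at an unadjusted limma p of at most 0.05, with a median of -0.05. Of 80 cytosolic ribosomal protein genes, 49 were DEGs higher from CS to SD (38 without CS replicate 2), and 0 reached the unadjusted level from SD to RS, with a median of -0.05. Of 22 genes of the ER chaperone and unfolded protein response list, 12 were DEGs higher from CS to SD, with or without CS replicate 2, and 0 reached it from SD to RS. Of the 82 respiratory chain genes, 64 had a log2 FC below 0 from SD to RS (78.0%), against 51.7% of all genes. Of the 80 ribosomal genes 65 did (81.2%), and of the 22 ER list genes 11. Corrected for GC content and transcript length, the median was -0.019 for the respiratory chain list and -0.03 for the ribosomal list. The summed ribosomal level had medians of 7289 in CS, 10063 in SD and 8888 in RS. For the respiratory chain list they were 6182, 8223 and 7441. SD and RS ranges overlapped in both lists. Hspa5, the main ER chaperone, had medians of 137 in CS, 187 in SD and 183 in RS (log2 FC 0.13, limma adjusted p = 0.986). The counts at the unadjusted level do not show that the levels were equal in SD and RS.

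The remaining lists had at most 1 member at the unadjusted level. These were heat shock proteins (0 of 19), cold-inducible RNA-binding proteins (0 of 2, with Cirbp at a log2 FC of 0.08), Krebs cycle enzymes (0 of 23), cholesterol and fatty acid synthesis (0 of 28), translation factors (0 of 44), synaptic scaffolds (0 of 24), presynaptic release (0 of 35), adenosine handling (0 of 11), MEF2 factors and class IIa deacetylases (0 of 8) and proteasome subunits (0 of 36). Splicing factors (Nova1, of 44), neuropeptides (Adcyap1, of 17) and mitochondrial ribosomal proteins (Mrps6, of 74) had 1 each. Of the 74 mitochondrial ribosomal protein genes, 54 had a log2 FC below 0 (73.0%), against 51.7% of all genes. Their median was -0.052, and -0.029 with GC content and transcript length corrected for. In the haem list of 18, the 5 at that level were the blood genes.

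**Figure D4:**
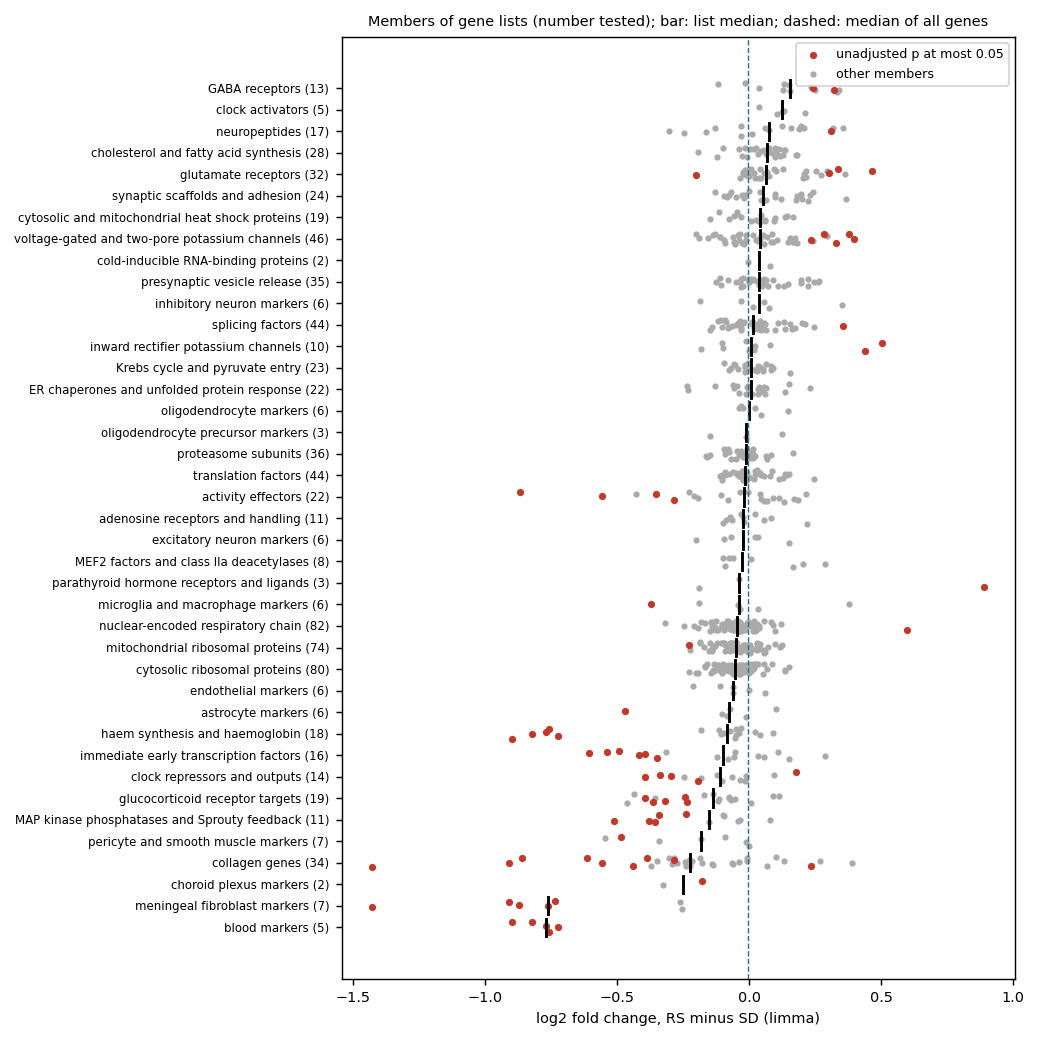
Log2 fold change from SD to RS (x axis) of each tested member of 40 gene lists (y axis, number tested in parentheses), with the list median as a black bar and members with an unadjusted limma p of at most 0.05 in red. Blood and meningeal fibroblast markers lie to the left, with medians of -0.77 and -0.76, GABA receptors lie to the right at 0.15 (0.11 after GC and length correction), and most lists centre on the median of all genes (dashed).

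To pick genes that respond to sleep loss without the SD libraries compared here, Mef2c f/f mice were used. There, 5 genes were DEGs from CS to SD (0.0403% of 12410), and at an unadjusted limma p under or at 0.01 with a log2 FC of 0.3 or more in size, 249 were higher (2.01%) and 324 lower (2.61%). Of the higher ones, 246 were tested from SD to RS in WT mice. From CS to SD in WT mice, which shares the SD libraries, the median log2 FC of these 246 was only 0.05. There, 69 were DEGs higher and 33 lower, where 24.6% of all genes were higher and 20.5% lower. From SD to RS, their median log2 FC was -0.04, 64.6% were below 0 against 51.7% of all genes, and 21 were lower and 3 higher at an unadjusted limma p of at most 0.05. Dusp4, Dusp6, Egr2, Fkbp5, Fos, Ier5, Klf10 and Bhlhe40 were among the 21. Of the genes lower in Mef2c f/f, 316 were tested, their median was 0.02, and 18 were higher and 10 lower, with Gfpt2 on the higher side and the globins and Alas2 on the lower side. From CS to SD in WT mice, 315 of them were tested, with a median of -0.01, and 44 were DEGs higher and 48 lower. Most genes picked in Mef2c f/f mice were thus not DEGs after SD in WT mice.

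Of the 3 genes called higher in Mef2c f/f mice, 3 had a log2 FC below 0 from SD to RS in WT mice, with a median of -0.25, and Gadd45a and Trib2 were lower at an unadjusted limma p of at most 0.05. In Mef2c-cKO mice, 3 genes were DEGs (0.0234% of 12810), and 42 were higher at the looser threshold (0.328%) and 10 lower (0.0781%). Of the 30 higher ones tested in WT mice, 3 were lower from SD to RS and 1 higher, with a median of -0.01. The difference between the genotypes was not tested.

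**Figure D5:**
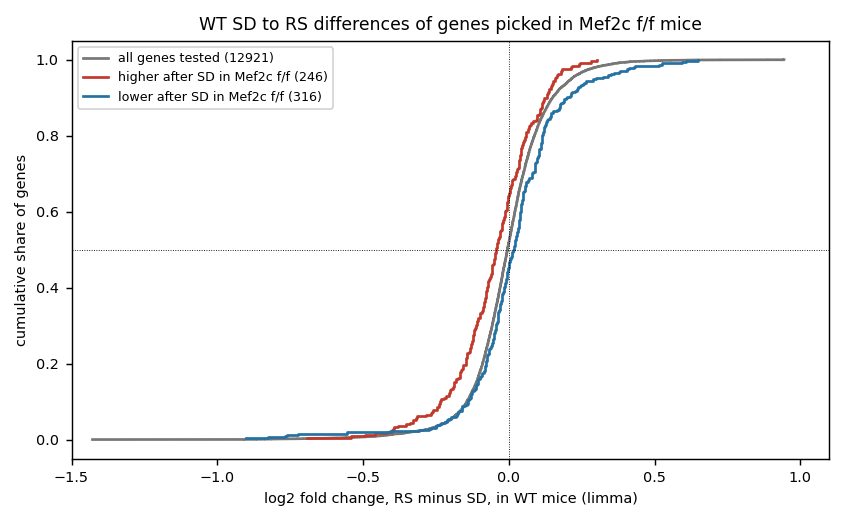
Cumulative share of genes (y axis) by log2 fold change from SD to RS in WT mice (x axis), for all 12921 genes tested (grey), 246 genes higher after SD in Mef2c f/f mice (red) and 316 lower (blue). The red curve lies to the left of the grey, with 64.6% of its genes below 0, and the blue curve lies close to the grey.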

How the data were processed

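Frontal cortex RNA was sequenced as 150 bp paired-end reads. After trimming by the authors, STAR alignment used mm10, HTSeq counted uniquely mapped reads per gene, and CPM from edgeR were deposited; versions and annotation are not given in the sources used here. Of 711645 deposited CPM values, 100.0% came out as whole reads (within 0.01), so reads were recovered. CPM were rescaled by median-of-ratios factors over 11570 genes, and log2(value + 0.5) was tested with limma 3.58.1 (R 4.3.3) on the compared groups alone. edgeR 4.0.16 and DESeq2 1.42.0 on recovered reads, other scalings, filters and fits were alternatives; the fit without CS replicate 2 was added after seeing the data. A fold change on this scale understates low genes. Groups came from the labels; the study gives its groups as mice, and each library was taken as 1 mouse, which the labels do not state.

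Genes named were every DEG, every gene whose SD and RS libraries did not overlap, fixed core members and the 3 members of lowest p of each list, and up to 10 rises and falls called by edgeR or DESeq2; other genes were named after their values were seen. Members and lists (39, and collagens added later) were chosen with earlier results of these data known. Lists were described by counts and medians, with no test, and 1 item is not reported here. Coordinates are from GENCODE M21, and promoters from RefSeq (GRCm38.p6), where 47 of 63 list members had an entry. Same-numbered SD and RS libraries did not all deviate together, so the numbers were not used to pair them.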

Additional observations from a re-analysis of the deposited data

Results flagged for a closer look

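For each gene named, the highest or lowest library of a group was compared with the next by Dixon's test. Of 240 gene and group pairs, 26 lay past the 95% critical value (14 in CS, 6 in SD and 6 in RS), where chance gives about 1 in 20, and genes of 1 library are not independent.

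In CS, replicate 2 stood apart most often, in rescaled CPM. It was highest for Gfpt2 (17.0), Map3k8 (4.73), Prr16 (413), Slit2 (332), Mctp2 (12.1), Clock (374), Kcnj3 (1028), Gria3 (1353), Gabra2 (489) and Gabrb2 (901), and lowest for Myo1c (8.50) and Spry4 (2.91). CS replicate 4 was highest for Wnk4 (1.68). CS replicate 5 was highest for Junb, at 35.2 against 8.64 in the next library.

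In SD, replicate 2 was highest for Npas4 (13.5), Trib1 (15.2), Dusp6 (67.9) and the meningeal transporter gene Slc6a13 (20.6). SD replicate 1 was highest for Bhlhe40 (78.5) and lowest for Itpkc (6.17).

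In RS, replicate 1 was highest for C7 (4.94) and lowest for Itpkc (4.97), replicate 4 was highest for Gfpt2 (18.5), and replicate 5 was highest for Pth1r (5.19) and lowest for Akna (3.78). RS replicate 12 was highest for Plin4, at 10.8 against 5.45 in the next library.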

How the results depend on the processing

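The 3 DEGs remained 3 with either other pseudocount, with edgeR and with no fold threshold. All WT groups in 1 fit gave 3 (Gfpt2 in place of Pth2r), quantile normalization 4 (Gfpt2 added), correction for GC content and transcript length 2 (Kcnj2 lost), CPM as deposited 1 (Pth2r), and array quality weights 100. There were 0 without a filter on low values (1046 genes at an unadjusted limma p of at most 0.05), 0 with CPM of at least 5 in every library (403), and 0 with a replicate block (607); the numbers did not pair the libraries (correlations of same-numbered deviations from -0.726 to 0.333). Leaving out 1 library gave 0 to 9 limma DEGs, with 0 in 10 of the 14 fits, 9 without RS replicate 5, 6 without SD replicate 3, 3 without RS replicate 4 (Gfpt2 in place of Alas2) and 1 without SD replicate 4; unadjusted p passed for 463 to 1306 genes. DESeq2 gave 54, and 26 (without SD replicate 8) to 121 (without RS replicate 5) when 1 library was left out. Chosen after seeing the data, all WT groups in 1 DESeq2 fit gave 20 calls (20 of the 54), CPM of at least 5 gave 33 (32 of the 54) and the block 46 (20 of the 54). The cause was not tested.

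The median log2 FC of all genes was -0.0047, and -0.09 with CPM as deposited. Of 2056 gene values under alternatives, 15 changed sign, in 5 genes: Homer1 (-0.03 as deposited, -0.045 by quantile normalization, -0.02 after GC correction, -0.014 to 0.115 without 1 library), Bdnf (-0.004 after GC correction), Nr1d1 (0.027 after GC correction, -0.094 to 0.027 without 1 library), Hspa5 (-0.029 with the block, -0.019 to 0.216 without 1 library) and Cirbp (-0.006 as deposited, -0.02 with array weights, -0.002 to 0.146 without 1 library). None of these 5 passed a test.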
